A study of Mus musculus with 4 samples.

Results

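The secretagogue receptors and calcium release genes of the exocrine pancreas were examined for binding of the transcription factor NFIC. They are 10 genes, namely the receptor genes *Cckar*, *Chrm1*, *Chrm3* and *Sctr*, the G protein genes *Gnaq* and *Gna11*, the IP3 receptor genes *Itpr1*, *Itpr2* and *Itpr3*, and the calcium pump gene *Atp2a2*. They were chosen by name, with earlier results of these data known, and every peak whose assigned gene is one of them was taken. This gave 21 of the 15824 peaks in the list, at 9 of the 10 genes, and *Gnaq* had no assigned peak. The list comes from ChIP-Seq of whole pancreas of wild-type mice of mixed strain, with 3 libraries precipitated with an anti-NFIC antibody and 1 library of input DNA. The mice were 8 to 12 weeks old by the deposited description, and the paper's results text gives a slightly narrower range for the ChIP-Seq. The authors merged the libraries into 1 list of peaks on mm10, each with a peak score, a focus ratio (the fraction of its tags near its centre) and the nearest transcription start site (TSS). The list has no value for a single library, so replicate error is not known, no difference could be tested and the depth is unknown.

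The scale of the score is not named in the sources used here. All 12685 scores below 10 were whole multiples of 0.199 within 0.0051, and intervals given with a score are exact 95% Poisson intervals under the assumption that 1 such step is 1 tag. Wilson intervals at 95% are given with shares. Both cover counting error only. Whole tissue was used, so binding in acinar cells and in other cells cannot be told apart. Among the marker genes, 6 of 6 acinar genes, 0 of 4 endocrine genes and 2 of 3 duct genes (*Krt19* and *Sox9*) had an assigned peak, beside 35.7% of all protein-coding genes. The paper had already reported NFIC binding at *Cpa1*, *Ctrb1*, *Cela2a* and *Pnlip* by ChIP-qPCR, so the acinar count was largely known beforehand. This is a statement on binding and not on expression, and with so few genes none of these counts is read further.

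Acinar cells secrete digestive enzymes when cholecystokinin or acetylcholine binds its receptor at the basolateral membrane. The receptors act through Gq proteins and phospholipase C, which makes inositol trisphosphate (IP3), and IP3 opens calcium channels in the endoplasmic reticulum. The rise of calcium drives exocytosis, and SERCA pumps return the calcium to the store. Secretin acts through another branch, in which its receptor raises cyclic AMP. NFIC belongs to the nuclear factor I (NFI) proteins, which bind DNA as dimers at a palindrome of a pair of arms.

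The sequences at these genes are given first, because the site content of the peaks is read from them. They were read on the plus strand, 5′ to 3′, from RefSeq's GRCm38, which is the assembly behind mm10. The NFI full site searched was TGGCNNNNNGCCA, which is its own reverse complement, and 1 mismatch was allowed among the 8 fixed bases. The 4 peaks with the highest scores inside a member gene among those that hold such a site follow over the 173 bp of the deposited interval, with the full sites in capitals. The last 2 of them lie inside the gene and are assigned to another gene in the list.
*Sctr*, intron 4, chr1:120033179-120033351: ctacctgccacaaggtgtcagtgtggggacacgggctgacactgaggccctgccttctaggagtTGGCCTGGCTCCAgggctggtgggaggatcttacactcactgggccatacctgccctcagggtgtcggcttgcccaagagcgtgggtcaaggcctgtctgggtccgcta
*Sctr*, intron 3, chr1:120027833-120028005: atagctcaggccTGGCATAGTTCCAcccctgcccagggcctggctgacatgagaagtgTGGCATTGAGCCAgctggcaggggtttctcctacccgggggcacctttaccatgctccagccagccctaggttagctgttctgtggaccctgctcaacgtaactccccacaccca
*Itpr1*, intron 40, chr6:108426888-108427060: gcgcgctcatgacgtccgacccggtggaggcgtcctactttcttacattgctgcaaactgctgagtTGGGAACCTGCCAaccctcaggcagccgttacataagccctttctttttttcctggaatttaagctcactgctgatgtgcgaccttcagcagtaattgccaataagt
*Gnaq*, intron 1, chr19:16194213-16194385: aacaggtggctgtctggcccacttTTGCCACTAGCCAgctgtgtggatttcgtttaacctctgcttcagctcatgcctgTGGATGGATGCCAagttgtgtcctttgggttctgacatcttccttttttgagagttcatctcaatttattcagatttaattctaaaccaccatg

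The full sites in the remaining peaks follow with 8 bases on either side, the site again in capitals. The intron 3 peak of *Chrm3*, the intron 44 peak of *Itpr1* and the intron 45 and intron 52 peaks of *Itpr2* are assigned to other genes.
*Chrm3*, upstream, chr13:10526976-10527004: atactaacTGGAAGCTCGCCAgtgttttt
*Chrm3*, intron 1, chr13:10355875-10355903: taagaagaTGTCTTTCTGCCAgagtcctg
*Chrm3*, intron 2, chr13:10201601-10201629: ttcagttcTGGCAAATTGCCAgaccacct
*Chrm3*, intron 3, chr13:10045997-10046025: aatgttctTGGCTGTTCTCCAcctgtcat
*Itpr1*, intron 2, chr6:108233143-108233171: agagctgtTGGCATGGAGCCCtgggtgtc
*Itpr1*, intron 3, chr6:108240904-108240932: cacagagtTGGCTCCTCGCCAactgttag
*Itpr1*, intron 44, chr6:108449109-108449137: ctttcttcAGGCCTCCAGCCAaagtgcct
*Itpr2*, intron 2, chr6:146431701-146431729: caagtgttTGGCTGAGGTCCAgacctgca
*Itpr2*, intron 45, chr6:146196868-146196896: taactactTGGCAATCAGTCAgttacttt
*Itpr2*, intron 52, chr6:146159841-146159869: tcactgcaTGGCCCATTGCCAacgcctgt
*Atp2a2*, upstream, chr5:122510717-122510745: tttcaggcTGGCAGGAACCCAaggacaga

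A pair of peaks without a full site is shown for contrast. Capitals mark GGGCGG, a site of SP factors, in the *Atp2a2* promoter. In the *Itpr2* peak they mark the NR5A2 site (TGACCTTG, the reverse complement of CAAGGTCA) and the E-box CAGCTG.
*Atp2a2*, promoter, chr5:122502441-122502613: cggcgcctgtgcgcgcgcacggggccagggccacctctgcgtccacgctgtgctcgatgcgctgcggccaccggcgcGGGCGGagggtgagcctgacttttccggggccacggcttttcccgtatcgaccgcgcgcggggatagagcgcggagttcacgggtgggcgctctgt
*Itpr2*, intron 1, chr6:146491765-146491937: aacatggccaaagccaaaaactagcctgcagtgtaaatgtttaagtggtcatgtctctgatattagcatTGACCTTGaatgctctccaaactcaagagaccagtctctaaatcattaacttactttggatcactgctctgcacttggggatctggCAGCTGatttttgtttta

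Of the receptor genes, *Sctr* had the peak with the highest score and the next highest. *Sctr* encodes the secretin receptor and lies at chr1:120006879-120063539 on the plus strand. Its peaks scored 18.5 (15.0 to 22.7) in intron 4 of 13 at 26285 bp from the TSS, 11.6 (8.77 to 14.9) in intron 3 at 20939 bp and 7.97 (5.69 to 10.8) in intron 3 at 18240 bp. The interval of the first lay above those of all other peaks assigned to the 10 genes, and 2.67% of all peaks scored at least as high. No peak was assigned to the *Sctr* promoter. RefSeq also predicts transcripts of *Sctr* that start inside the gene, and relative to the nearest of these 12 start sites the peaks lay at -1370, 2034 and -665 bp. The second peak holds an NFI full site without mismatch (TGGCATTGAGCCA), 22 bp from its centre, and a further site with 1 mismatch. The first holds 1 site with 1 mismatch, 16 bp from its centre, and the third holds none.

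*Chrm3* encodes the M3 muscarinic receptor, through which acetylcholine stimulates acinar cells. With 5 assigned peaks it had the most of the 10 genes, and 1.65% of protein-coding genes had as many or more. It is a gene of 486 kb at chr13:9875486-10361062 on the minus strand. The peak at -209 bp, in the promoter, scored 8.56 (6.20 to 11.5). The peak at 369 bp, in the 5′ UTR, scored 7.17 (5.02 to 9.93). Neither has an NFI full site, and by a predicted RefSeq transcript with an earlier start the first of them lies 50 bp inside the gene. The other peaks lay at 4845 bp in intron 1 with a score of 6.37 (4.36 to 9.0), at 159196 bp in intron 2 with 7.57 (5.36 to 10.4) and at -166189 bp upstream with 8.37 (6.03 to 11.3). Each of these 3 has 1 full site. That of the intron 2 peak (TGGCAAATTGCCA) has no mismatch and lies 8 bp from the peak centre. The peak itself is annotated to MLTR14, a long terminal repeat of the ERV1 family. It is the only peak of the 21 annotated to a repeat. The intervals of the 5 scores overlap, so the peaks of *Chrm3* are not ranked here.

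*Chrm1*, which encodes the M1 muscarinic receptor, had 1 peak in its 3′ UTR (exon 3 of 3) at 15536 bp, with a score of 9.16 (6.71 to 12.2). *Cckar*, which encodes the cholecystokinin A receptor, had 1 intergenic peak at -20066 bp with a score of 3.98 (2.43 to 6.15). It is among the weaker peaks, since 95.7% of all peaks scored at least as high. Neither the *Chrm1* nor the *Cckar* peak has an NFI full site, and that of *Cckar* has a single NFI arm (TTGGCA), an E-box and a GATA site (AGATAA, here as TTATCT). A peak of 8.37 lies 37099 bp downstream of the *Cckar* TSS and is assigned to *Rnu7*, a small nuclear RNA gene. By the nearest protein-coding TSS of RefSeq, this peak belongs to *Cckar*. The 10 receptor peaks scored from 3.98 to 18.5 with a median of 8.17. At or above the median of all peaks were 8 of them, or 80.0% (49.0 to 94.3%). The share over all peaks was 51.6%, which lies within the interval. Apart from the *Chrm1* peak, these 8 belong to *Chrm3* and *Sctr*.

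**Figure D1:**
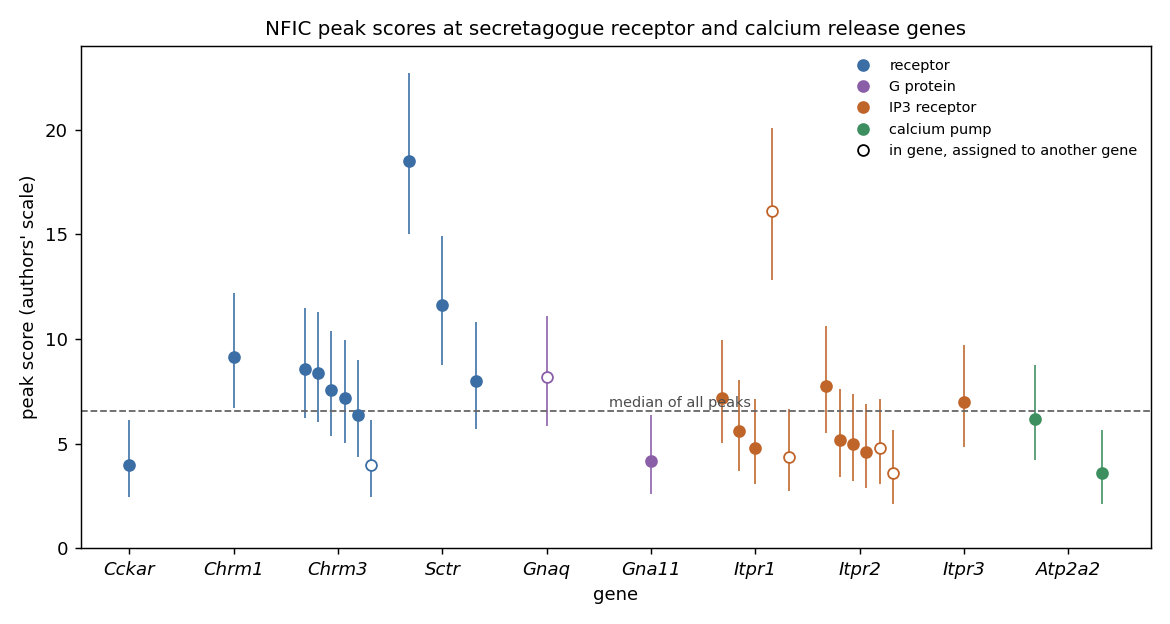
Peak score on the authors' scale (vertical axis) for each peak at the 10 genes (horizontal axis), with 95% Poisson intervals under the assumption of 1 tag a step. Filled points are assigned to the gene, open points lie inside it and are assigned to another gene, and the dashed line is the median of all peaks, 6.57. The *Sctr* peak of 18.5 and the *Itpr1* peak of 16.1 stand highest, and *Gnaq* has an open point only.

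The G protein genes had 1 assigned peak between them. *Gnaq* and *Gna11* encode the alpha subunits that couple the cholecystokinin and the M1 and M3 muscarinic receptors to phospholipase C. *Gna11* had 1 intergenic peak at -6611 bp with a score of 4.18 (2.59 to 6.39) and without an NFI full site. Of all peaks, 91.7% scored at least as high. Within 100 kb of its TSS were 5 more peaks assigned to other genes, of which 1 in an intron of *Aes*, at -19123 bp from the *Gna11* TSS, scored 19.1. *Gnaq*, of 256 kb at chr19:16132684-16388520, was not listed as the assigned gene of any peak. The peak nearest to its TSS lies 61615 bp downstream, in intron 1 of 6, and 63.2% of protein-coding genes have a peak as near or nearer to a TSS. That peak scored 8.17 (5.86 to 11.1) with a focus ratio of 0.855, and it is assigned to *E030024N20Rik*, whose TSS is 30201 bp away. It holds 2 NFI full sites, each with 1 mismatch, of which 1 is 1 bp from its centre. By the nearest protein-coding TSS of RefSeq, this peak belongs to *Gnaq*, and then all 10 genes have a peak. The share of 35.7% of protein-coding genes is for the authors' assignment, and none is given for this one.

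The IP3 receptor genes encode the channels that release calcium from the endoplasmic reticulum. They had 8 assigned peaks, with scores from 4.58 to 7.77 and a median of 5.38. *Itpr1*, of 338 kb at chr6:108213083-108551116, had peaks of 5.58 (3.71 to 8.06) at 273 bp in intron 1 of 61, of 7.17 (5.02 to 9.93) at 20039 bp in intron 2 and of 4.78 (3.06 to 7.11) at 27814 bp in intron 3. The peak of 4.78 has a full site without mismatch (TGGCTCCTCGCCA) 8 bp from its centre. *Itpr2*, of 394 kb at chr6:146108299-146502258 on the minus strand, had 4 peaks. They scored 4.98 (3.22 to 7.35) at 934 bp, 7.77 (5.52 to 10.6) at 10372 bp and 4.58 (2.90 to 6.87) at 20530 bp, all in intron 1 of 56, and 5.18 (3.38 to 7.59) at 70450 bp in intron 2. Of these, the peak in intron 2 has a full site, with 1 mismatch, and the peak of 7.77 has none but has the NR5A2 site. By the nearest RefSeq start site of *Itpr2*, the intron 2 peak lies at -10338 bp. NR5A2 is an acinar transcription factor, and its site was found in 1 of the 21 peaks and in 2.04% of all peaks. *Itpr3*, of 65.2 kb, had 1 intergenic peak at -8291 bp with a score of 6.97 (4.86 to 9.70), and none inside the gene. It has no full site, but has single arms and an E-box. The intervals of the 8 scores overlap with each other.

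*Itpr1* and *Itpr2* hold further peaks far inside the gene, which the list assigns to other genes. In intron 40 of *Itpr1*, 214 kb from the TSS, is a peak of 16.1 (12.8 to 20.1). From the nearest RefSeq start site of *Itpr1* it lies 89556 bp away. Of all peaks, 4.70% scored at least as high as this peak. Its interval lies above those of the 3 assigned *Itpr1* peaks. It is assigned to the microRNA gene *Mir7661*, with a distance of -62769 bp to its TSS, and it holds a full site with 1 mismatch 14 bp from its centre. A peak of 4.38 in intron 44 is assigned to the same microRNA gene. Peaks of 4.78 in intron 45 and 3.59 in intron 52 of *Itpr2* are assigned to *Sspn*. With a peak of 3.98 in intron 3 of *Chrm3*, assigned to *Zmynd11*, and the *Gnaq* peak, 6 peaks lie inside a member gene and are assigned elsewhere. Each of these 6 has an NFI full site (interval 61.0 to 100%), where 56.9% of the 6454 intron peaks of the list do. The genes that took these few peaks were named after their values were seen, so no difference from the list is read.

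**Figure D2:**
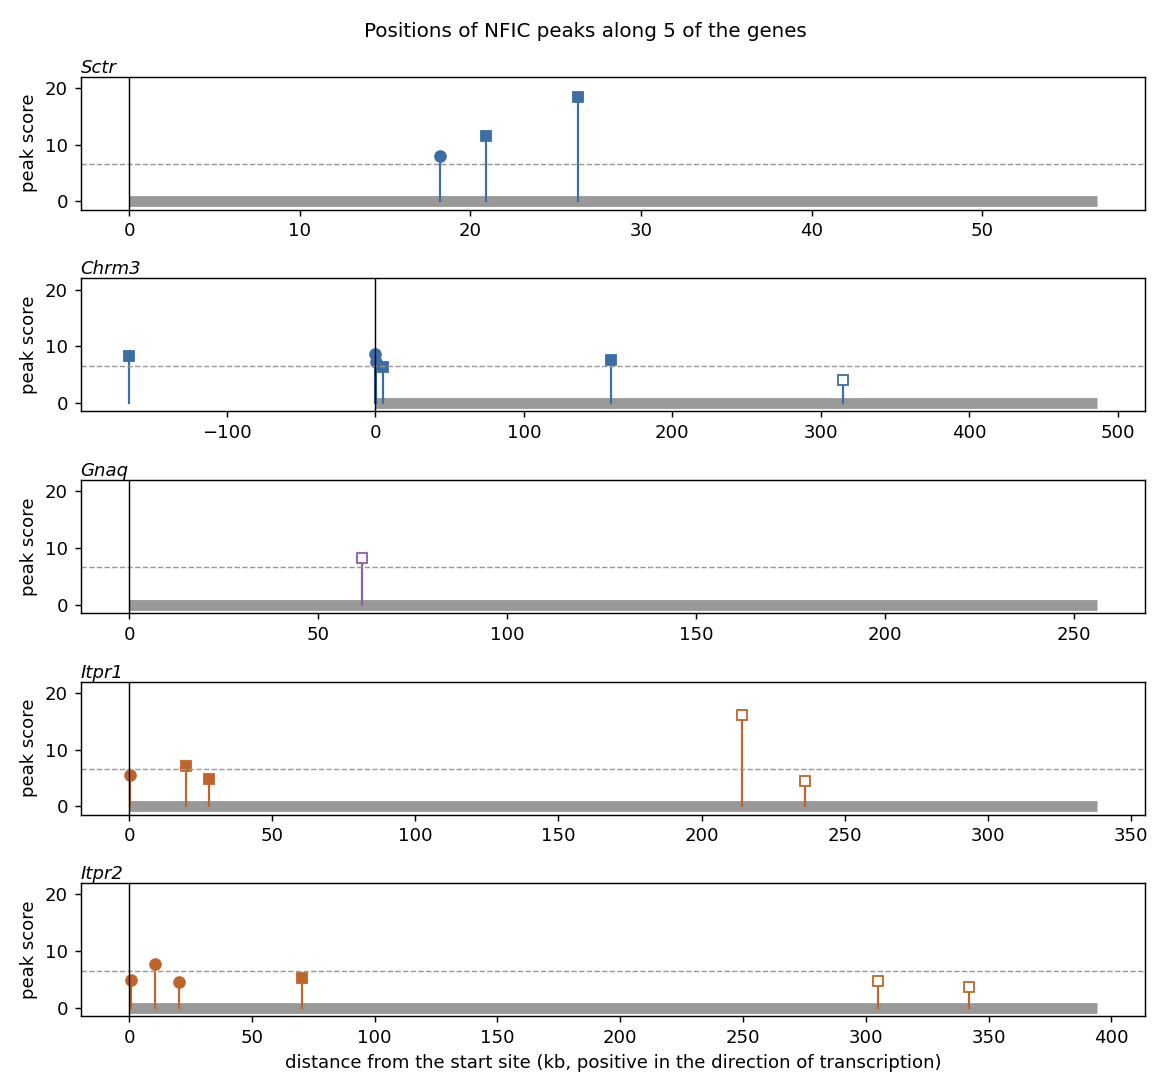
Position of the peaks along *Sctr*, *Chrm3*, *Gnaq*, *Itpr1* and *Itpr2*, as the distance from the TSS in kb (horizontal axes, to scale within each gene), with the peak score on the vertical axes. The grey bar is the gene, squares are peaks with an NFI full site, circles are peaks without, open symbols are peaks assigned to another gene, and the dashed line is the median score. Squares lie at 4.84 kb or more from the TSS, and circles lie both near it and farther away. The open square of 16.1 in *Itpr1* is higher than the filled symbols of that gene.

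*Atp2a2* encodes SERCA2, the pump that refills the endoplasmic reticulum with calcium. It lies at chr5:122453513-122502225 on the minus strand and had 2 peaks. The promoter peak at -302 bp scored 6.17 (4.20 to 8.76) and has no full site, but has GGGCGG, in a window with 74.0% GC, the highest of the 21. The intergenic peak at -8515 bp scored 3.59 (2.12 to 5.67), where 99.2% of all peaks scored at least as high, and it has a full site with 1 mismatch, a single arm and an E-box. No peak lay inside the gene.

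Over the 10 genes, 9 had an assigned peak, beside 35.7% of 21883 protein-coding genes. A peak with a score at or above the median of 6.57 was found at 6 of the 10, beside 21.0% of protein-coding genes. The members were chosen with earlier results of these data known, so these counts are a description and no independent evidence. Gene length moves with these counts and its part was not tested. The members have a median length of 60.9 kb, beside 17.2 kb for all protein-coding genes. *Chrm3*, *Gnaq*, *Itpr1* and *Itpr2* are in the tenth of longest genes, where 53.4% have an assigned peak. In the promoter window, from -1000 bp up to the TSS, 2 of the 10 genes had a peak (*Chrm3* and *Atp2a2*), beside 10.3% of protein-coding genes. By the RefSeq start sites, predicted transcripts included, the 2 genes are *Sctr* (-665 bp) and *Atp2a2*, since the *Chrm3* peak then lies at 50 bp. With 1000 bp on both sides of the TSS as the list gives it, *Itpr1* and *Itpr2* join *Chrm3* and *Atp2a2*. The share of 10.3% does not apply to this wider window.

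The 21 peaks were 12 intron peaks, 5 intergenic peaks, 2 promoter peaks and 1 peak each in a 5′ UTR and a 3′ UTR. Introns held 57.1% of them and 40.8% of all peaks, and promoters held 9.52% and 20.7%. Most of the 12 intron peaks belong to the long genes *Chrm3*, *Itpr1* and *Itpr2*, and no difference is read from so few peaks. Of the 21, 11 or 52.4% (32.4 to 71.7%) were at or above the median score, beside 51.6% of all peaks. The median score of the 21 was 6.97 and the median focus ratio 0.667, where all peaks had 6.57 and 0.684.

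An NFI full site was found in 9 of the 21 peaks, or 42.9% (24.5 to 63.5%), beside 51.8% of all peaks, which lies within the interval. The share depends on which peaks and sites are taken. It was 59.1% (38.7 to 76.7%) in the 22 peaks inside a member gene or up to 5000 bp upstream, 22.2% (6.32 to 54.7%) in the highest peak of each of the 9 genes, and 14.3% without mismatches, beside 13.4% of all peaks. So no direction against the list is read from it. The 9 peaks belong to *Chrm3*, *Sctr*, *Itpr1*, *Itpr2* and *Atp2a2*. The sites were a median of 16 bp from the peak centre, beside 24 bp over all peaks with a site. Sites were found in 0 of the 5 peaks within 1000 bp of the TSS (0 to 43.4%) and in 9 of the 16 farther peaks, or 56.2% (33.2 to 76.9%). Over all peaks these shares were 39.0% and 56.7%. The 5 near peaks had a median GC content of 64.0% and the 16 farther peaks one of 52.2%, beside 65.0% and 51.5% for all such peaks.

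Of the other motifs, searched on both strands in the same windows, the single arm TTGGCA was in 10 of the 21 peaks, or 47.6% (28.3 to 67.6%), and in 33.7% of all peaks. It can overlap a full site. The E-box CAGCTG, the type bound by PTF1A, was in 7 peaks, or 33.3% (17.2 to 54.6%), and in 21.4% of all peaks. GGGCGG was in 3 peaks, or 14.3% (4.98 to 34.6%), and in 21.1% of all peaks. CAAGGTCA, AGATAA and TGTTTAC (a FOX site) were in 1 peak each, beside 2.04%, 8.76% and 3.99% of all peaks. All 7 intervals include the share over the list.

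**Figure D3:**
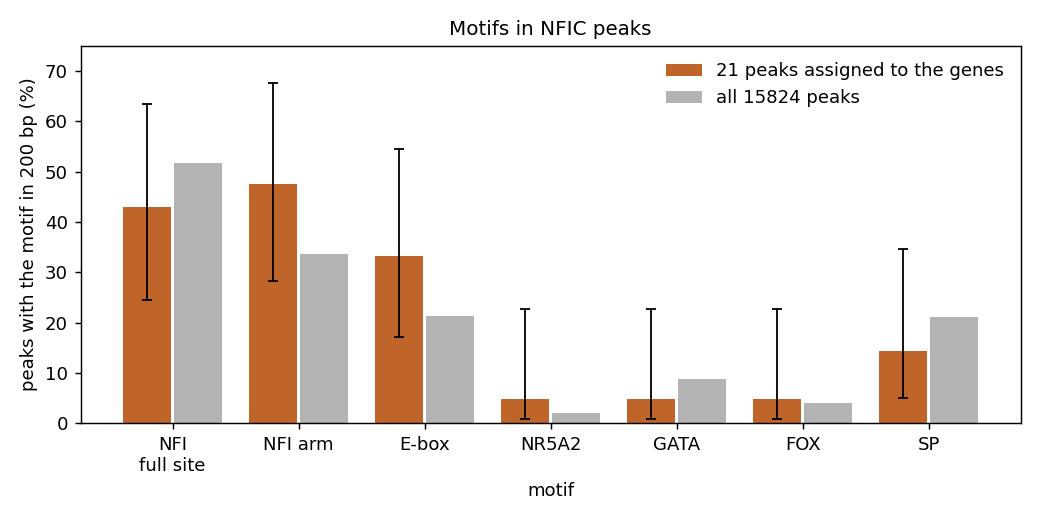
Percentage of peaks with each motif in 200 bp (vertical axis) for the 21 peaks of the 10 genes, with 95% Wilson intervals, beside all 15824 peaks. Each interval includes the value of the list, as for the NFI full site with 42.9% and 51.8%. The bar named NFI arm is TTGGCA.

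The other genes of the pathway were taken from a list of 95 genes in 8 roles, all of which were matched in RefSeq. The list was written with earlier results of these data known. Its shares are therefore a description and no independent evidence, and the intervals do not cover that choice. Of these, 59 or 62.1% (52.1 to 71.2%) had an assigned peak and 15 or 15.8% (9.81 to 24.4%) a promoter peak, against the shares of 35.7% and 10.3% given above. A peak with a score at or above the median was found at 39 or 41.1% (31.7 to 51.1%), against 21.0%. The list has a median gene length of 49955 bp, beside 17.2 kb for all protein-coding genes, and the part of length in these counts was not tested. Within the list the genes with a peak had a median length of 44.5 kb and those without one of 58.5 kb.

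By role, a peak was found at 8 of 16 further receptors, 8 of 13 G proteins and regulators and 4 of 5 phospholipases C. The counts were 4 of 13 for calcium release and its regulators, 9 of 12 for calcium entry, 6 of 10 for pumps, exchangers and mitochondrial uptake, 13 of 17 for effectors and 7 of 9 for the cyclic AMP arm. The share over all protein-coding genes was 35.7%. With 5 to 17 genes in a role, no difference between roles is read, and the part of gene length was not tested. The ryanodine receptor genes *Ryr2* and *Ryr3*, which encode the other class of release channel, had none, and *Ryr1* had 1 peak of 5.98 at -1578 bp. *Plcb3* was the phospholipase gene without a peak.

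The highest peak of the list was at *Gna14*, a gene of the Gq family next to *Gnaq*, with a score of 30.5 at 321 bp from the TSS. It was followed by *Nfatc2* (20.7, intron, 58166 bp), a transcription factor activated by calcineurin, and by *Rgs2* (19.1, 56976 bp), whose product shortens Gq signals. *Plcb1* and *Gnb2*, a G protein beta subunit, each had a highest peak of 16.5, at 79001 bp and -6051 bp. *Nfatc1* had the most peaks, 8, before *Plcb1* and the calcineurin gene *Ppp3ca* with 6 each. *Homer2*, a scaffold protein, the store sensor *Stim2* and the adenylyl cyclase *Adcy6* had 5 each.

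Promoter peaks at receptors included those of *Grpr* (5.58 at -141 bp), *Sstr2* (5.98 at -224 bp) and *F2rl1* (9.96 at -148 bp), which encode receptors for gastrin-releasing peptide, somatostatin and proteases. The Gi subunit gene *Gnai1* had one of 10.6 at -304 bp. In calcium entry they were at *Orai1* (10.6 at -251 bp) and *Orai3* (8.96 at -738 bp), which encode store-operated channels, at *Stim2* (6.77 at -238 bp) and at the mechanosensitive channel gene *Piezo1* (6.97 at -348 bp). The plasma membrane pump gene *Atp2b1* had a promoter peak of 4.98 at -745 bp. Effectors with one were the calmodulin genes *Calm2* (8.17 at -280 bp) and *Calm3* (5.18 at -25 bp), *Ppp3ca* (5.98 at -69 bp) and the calcineurin regulator *Rcan1* (4.58 at -216 bp). In the cyclic AMP arm it was *Rapgef3* (4.98 at -64 bp), an exchange factor that binds cyclic AMP. The promoter window ends at the TSS. It held a peak at 0 of 5 phospholipase C genes and 0 of 13 calcium release genes of the list. The same count was 0 for the 3 IP3 receptor genes. At a share of 10.3% such counts of 0 in lists of this size are near the background. With a window from -1000 to 100 bp, 18 pathway genes had a promoter peak, and no share over all genes is given for it. Among them was the calcium release gene *Bok*, with a peak of 11.2 at 55 bp.

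**Figure D4:**
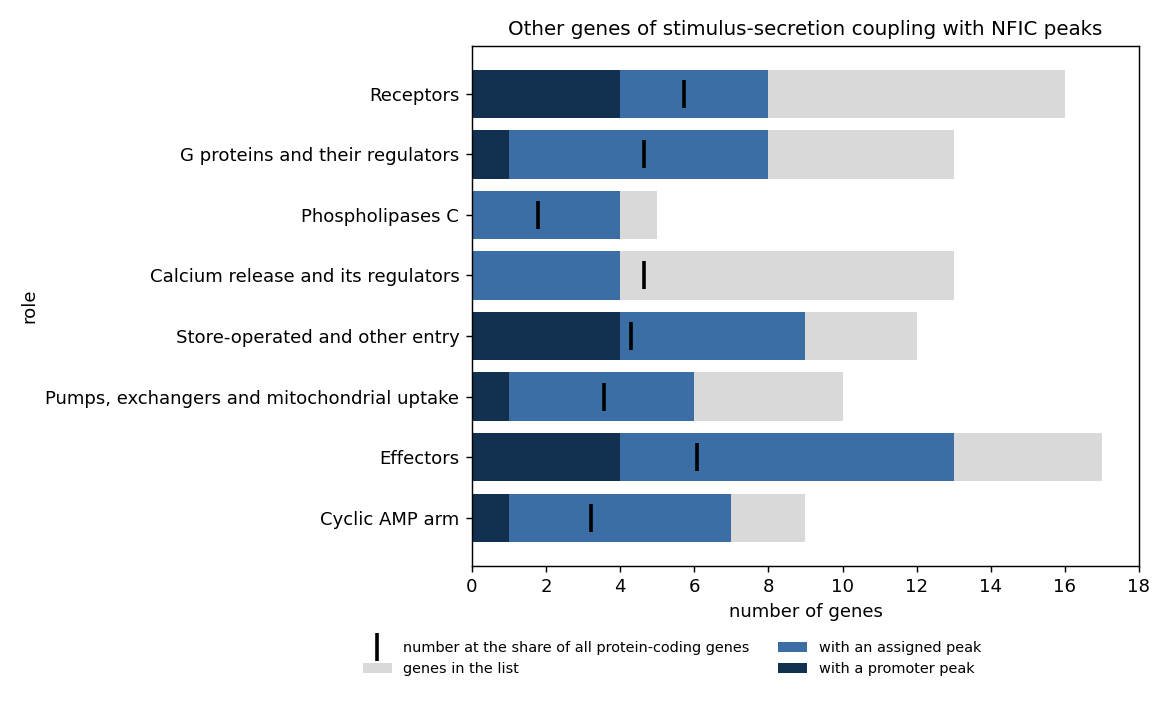
Number of genes (horizontal axis) in each of the 8 roles of the pathway list, in grey, with those that have an assigned peak in blue and a promoter peak in dark blue. The black ticks mark the number that the share of all protein-coding genes, 35.7%, would give. The roles hold 5 to 17 genes each, so a bar that ends near its tick, such as 4 of 13 in calcium release, is not set apart from it.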

How the data were processed

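The authors deposited 1 merged list of peaks, made from 3 NFIC ChIP-Seq libraries of mouse pancreas with 1 library of input DNA. The submitters' processing notes name BWA, Picard and MACS2 without versions, and the methods name RUbioSeq+ and HOMER in a paragraph on downloaded data, so the steps for these libraries are not stated apart. The deposited peak score is on a scale that is not named, and the deposited focus ratio is a fraction of tags. Columns with values per library numbered 0.

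Assigned gene, class and distance (negative upstream) were taken as the authors annotated them on mm10. Genes were matched to RefSeq of GRCm38 by gene identifier. Motifs were searched within 200 bp around each peak centre, and the search was tested on simulated data. No test across genes was made, since there are no replicate values. The members and the pathway list were chosen with earlier results of these data known. Named are all members with all their peaks and, of the pathway list, genes with a promoter peak, the 5 with most peaks (ties kept), the 5 with the highest peak and some without a peak. *Rnu7*, *Aes* and genes that took a peak inside a member, and *Ryr1* and *Bok*, were named after their values were seen. A gene that the rule would name is not reported here. Computations used Python 3.11.15, pandas 2.3.3, scipy 1.17.1 and pysam 0.24.0.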

Additional observations from a re-analysis of the deposited data

How the results depend on the processing

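No paired analysis was possible because the list is merged, and for the same reason no replicate could be left out. Of 35 alternative values, 25 stayed within 1.5 times the count or within the interval of the share. The rest moved through what each alternative keeps. With only peaks at or above the median score, 11 peaks were left at the members, 1 member and 7 pathway genes had a promoter peak, 39 pathway genes had a peak, and 23 of 37 peaks were within 100 kb of a member TSS. With a promoter window of 1000 bp on both sides, 4 members had a peak, and with one of 5000 bp upstream, 23 pathway genes did. No share over all protein-coding genes is given for these wider windows. The share of 10.3% is for the window from -1000 bp to the TSS, so these counts are not set against it. Within 200 kb of a member TSS were 71 peaks. The share of member peaks with an NFI full site was 14.3% without mismatches, beside 13.4% of all peaks, and 22.2% in the highest peak of each member. By the nearest protein-coding TSS of RefSeq, 10 members had 26 peaks, and of the 2 with a promoter peak *Sctr* took the place of *Chrm3*. With peaks inside the gene or up to 5000 bp upstream of it, 7 members had 22 peaks. No share over all protein-coding genes is given for either of these assignments. The use of the single arm TTGGCA, with 47.6%, was chosen after seeing the data.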
